A study of Mus musculus with 10 samples.

Results

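The transcripts described here are those of 10 genes at the output end of the Hippo pathway, namely Yap1, Wwtr1, Tead1, Tead2, Tead3, Tead4, Lats2, Amotl2, Vgll3 and Vgll4. They were taken by gene name from tables of 55401 genes, and all 10 were present under 1 gene ID each. RNA of the left ventricle (LV) was sequenced from 5 nAAC mice and 5 sham mice, 1 library per mouse. In nAAC, the neonatal ascending aorta constriction model, the aorta is narrowed surgically in newborn pups so that the ventricle grows against a pressure load. The sham mice had the control operation, all mice were wild type (WT) on a C57BL/6 background and were raised with their mothers, and the LV was taken at 4 weeks of age. The labels used here do not give the sex of each mouse. The paper states that females and males were assigned to the groups at random. The tissue was whole LV, so a lower number of cells of a type and less RNA per cell cannot be told apart.

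Hippo signaling is a kinase relay that limits organ growth and responds to cell contact, stretch and the stiffness of the surroundings. When the relay is active, LATS kinases phosphorylate the coactivators YAP (Yap1) and TAZ (Wwtr1), which are then held in the cytoplasm or degraded. When it is inactive, YAP and TAZ enter the nucleus and bind TEAD factors, which sit on a short DNA element first described in muscle genes and named M-CAT. In the heart, YAP is known for driving cardiomyocyte division before and shortly after birth, and YAP and TAZ are known for their part in fibroblast activation. Much of this control acts on the location and stability of proteins, which a transcript level does not measure. VGLL4 competes with YAP for TEAD, VGLL3 also binds TEAD, LATS2 is one of the kinases, and AMOTL2 is a junction protein that binds YAP. LATS2 and AMOTL2 are both regulators and target genes of YAP and TAZ.

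Because TEAD factors read the M-CAT element, the promoters of the members were searched for its core, GGAATG, on both strands, in windows of 250 bases before and 50 bases after each transcript start (RefSeq, GRCm38.p6). Windows were available for 8 of the 10 members, and 7 of the 8 held the core, beside 16.6% of the 27025 genes that had a window. When only the first window of each gene was read, 7 of the 8 members and 14.6% of all genes held it. The lines below show each core in capitals with 10 bases on either side, 5′ to 3′ on the strand that reads GGAATG, so that the flanks can be compared. All are on GRCm38.p6, and the strand is that of the printed sequence.
Yap1, chr9:8004722-8004747, minus strand: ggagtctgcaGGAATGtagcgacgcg
Wwtr1, chr3:57576031-57576056, minus strand: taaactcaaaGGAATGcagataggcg
Vgll4, chr6:114969270-114969295, minus strand: agtggggtggGGAATGctgagaaatg
Vgll3, chr16:65815116-65815141, minus strand: cagggtagccGGAATGtggggaggcg
Amotl2, chr9:102717729-102717754, minus strand: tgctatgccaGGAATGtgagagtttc
Lats2, chr14:57746104-57746129, minus strand: tgacgcccgtGGAATGccaacaatgt
Tead3, chr17:28350972-28350997, minus strand: cgacgagcgaGGAATGgggtgcgcgg
Tead3, chr17:28350708-28350733, plus strand: cggaatgtacGGAATGagcccggccg
Tead3, chr17:28350699-28350724, plus strand: ggggatggccGGAATGtacggaatga
Tead3, chr17:28350583-28350608, minus strand: gtaagcccggGGAATGcaactcggag

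The core of Yap1 begins 141 bases before its start, that of Wwtr1 136, that of Vgll4 82, that of Amotl2 65 and that of Vgll3 63 bases before. The Lats2 core begins at base 5 of a transcript whose start lies inside the gene coordinates given below. The transcript starts used for Vgll4 and Amotl2 also lie inside the coordinates of their genes. Tead3, which has several starts, held 4 cores, 2 of which overlap in their flanks. The Tead2 window held none, and Tead1 and Tead4 had no window. A match of 6 letters is a description of the sequence and no evidence that TEAD binds there. Vgll4 was the tested member with the smallest adjusted p between groups. The 250 bases before a transcript start of Vgll4 and of each of the 2 coactivators are shown in full, with the core in capitals.
Yap1, chr9:8004597-8004846, minus strand: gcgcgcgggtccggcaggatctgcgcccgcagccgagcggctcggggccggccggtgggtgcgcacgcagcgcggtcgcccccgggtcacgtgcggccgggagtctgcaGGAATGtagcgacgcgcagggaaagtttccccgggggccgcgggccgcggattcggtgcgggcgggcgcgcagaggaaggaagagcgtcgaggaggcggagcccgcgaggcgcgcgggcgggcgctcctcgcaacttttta
Wwtr1, chr3:57575911-57576160, minus strand: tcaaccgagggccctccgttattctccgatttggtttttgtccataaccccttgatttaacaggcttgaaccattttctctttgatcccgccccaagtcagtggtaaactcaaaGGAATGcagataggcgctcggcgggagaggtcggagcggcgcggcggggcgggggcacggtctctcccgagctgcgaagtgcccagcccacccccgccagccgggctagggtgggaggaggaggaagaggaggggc
Vgll4, chr6:114969204-114969453, minus strand: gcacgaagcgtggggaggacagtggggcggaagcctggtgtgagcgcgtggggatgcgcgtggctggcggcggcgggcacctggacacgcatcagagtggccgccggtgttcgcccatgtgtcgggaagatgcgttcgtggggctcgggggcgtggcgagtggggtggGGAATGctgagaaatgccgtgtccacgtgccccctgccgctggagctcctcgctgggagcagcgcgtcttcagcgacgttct

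G and C made up 76.4% of the Yap1 stretch, 61.6% of the Wwtr1 stretch and 69.6% of the Vgll4 stretch.

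Levels are given as FPKM (fragments per kilobase of transcript, scaled to the size of the library). FPKM does not add up to a fixed total. Its sum was from 577140 to 656229 in nAAC libraries and from 633241 to 727602 in sham libraries. Comparisons between mice therefore depend on the scaling. Group differences were tested with limma on log2(FPKM + 1) for the 11867 genes whose mean FPKM was 1 or more, and a gene was called at a Benjamini-Hochberg adjusted p below 0.05. Of all genes tested, 31.7% were called, 27.1% as higher in nAAC mice and 4.6% as lower. This excess of higher values was general. The median log2 fold change of all genes tested was 0.22, and it was -0.016 when the libraries were brought to equal median ratios against their geometric mean (median-ratio scaling). In that fit 12.5% of genes were called higher, which was 1487 of 3004 calls. For the members, differences are therefore given without and with this scaling. Depth, estimated from the ratio of FPKM to coverage, was from 4.86 to 6.82 gigabases in nAAC libraries and from 5.06 to 5.24 in sham libraries, and mitochondrial genes took from 32.8% to 39.9% and from 33.7% to 49.8% of the TPM (transcript abundance rescaled to a fixed total). Sham replicate 4 stood apart, with a mean correlation with the other sham libraries of 0.953 over the tested genes, where the other 9 libraries had from 0.968 to 0.982 within their own groups. Its values are given separately where a result rests on them.

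Among the 9 members that passed the filter, 5 rose in nAAC mice, namely Yap1, Wwtr1, Tead2, Lats2 and Vgll4, and none fell. The share of 55.6% stands beside the 27.1% of all genes tested. All 9 had higher means in nAAC mice, and their median log2 fold change was 0.42 beside the 0.22 of all genes. After median-ratio scaling the median was 0.16 and only Vgll4 was called, 1 of 9 beside 12.5% of all genes. Without sham replicate 4, 3 members were called on the FPKM as deposited, and these were Vgll4, Tead1 and Tead2, a share like the 33.1% of all genes called higher in that fit. No member reached the threshold for a differentially expressed gene (DEG), an adjusted p below 0.05 with an absolute log2 fold change above 1, which 5.01% of all genes reached in the higher direction. In Tead1 and Vgll4 all nAAC mice lay above all sham mice, as in 18.9% of the genes tested, and the same held for Vgll3, which was below the filter.

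**Figure D1:**
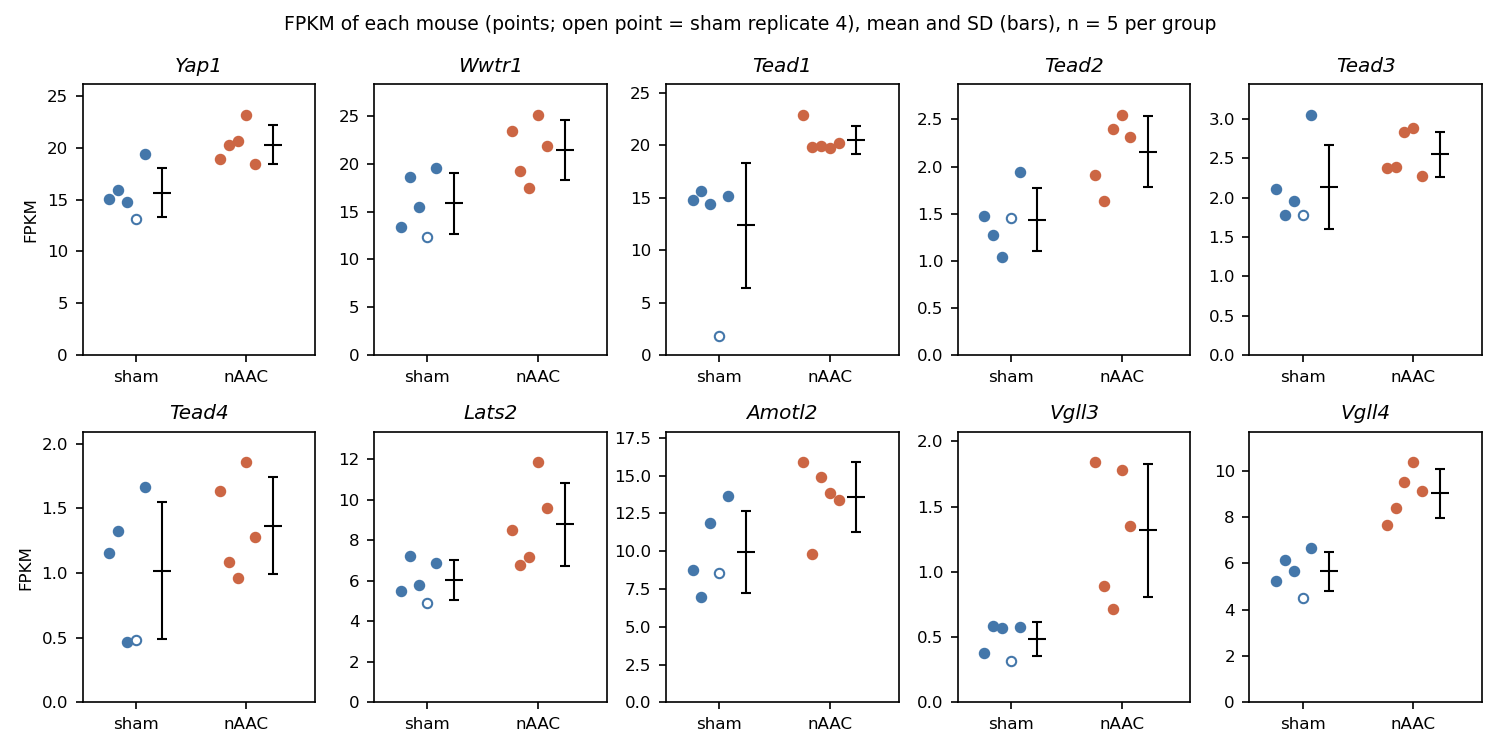
FPKM (linear axes from 0) of the 10 members in each sham mouse (blue) and nAAC mouse (orange), with the mean and SD of 5 mice beside the points and sham replicate 4 as an open point. Tead1, Vgll3 and Vgll4 have no overlap between groups, and sham replicate 4 lies at 1.81 for Tead1 where the other sham mice lie from 14.4 to 15.6.

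By FPKM, the coactivators were expressed at like levels. Yap1 (ENSMUSG00000053110, chromosome 9 from 7931999 to 8004596 on the minus strand of GRCm38) had FPKM of 18.9, 20.2, 20.6, 23.2 and 18.5 in nAAC replicates 1 to 5 and of 15.1, 16.0, 14.8, 13.1 and 19.4 in sham replicates 1 to 5. Sham replicate 5 lay above 2 of the nAAC mice, and the other 4 sham mice lay below every nAAC mouse. The means were 20.3 ± 1.86 and 15.7 ± 2.33 (SD, n = 5), a log2 fold change of 0.36 (SE 0.12, adjusted p = 0.0389), and a two-sided exact permutation test gave p = 0.024. The difference was 0.14 above the median of all genes, and after median-ratio scaling it was 0.08 (adjusted p = 0.654). The call for Yap1 was also lost when any mouse other than nAAC replicate 1 or sham replicate 5 was left out, with log2 fold changes from 0.30 to 0.39.

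Wwtr1 (ENSMUSG00000027803, chromosome 3 from 57455649 to 57575910, minus strand) had FPKM of 23.4, 19.2, 17.4, 25.1 and 21.9 in nAAC mice and of 13.4, 18.6, 15.5, 12.3 and 19.5 in sham mice. The groups overlapped, with sham replicates 2 and 5 inside the nAAC range. The means were 21.4 ± 3.11 and 15.8 ± 3.15 (SD, n = 5), a log2 fold change of 0.42 (SE 0.15, adjusted p = 0.048), with an exact permutation p of 0.04. After median-ratio scaling it was 0.14 (adjusted p = 0.516). The call was lost without any of nAAC replicates 1, 2, 4 and 5 or sham replicates 1, 3 and 4, with log2 fold changes from 0.34 to 0.46.

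TAZ and YAP transcripts kept about equal shares of FPKM. The deposited coverage was higher for Wwtr1, at 61.85 in sham replicate 4 and from 66.7 to 157.2 in the other mice. For Yap1 it was 29.75 and from 34.04 to 57.5. The log2 ratio of Wwtr1 to Yap1 FPKM within a mouse lay between -0.24 and 0.31 under nAAC and between -0.17 and 0.22 under sham. Its means of 0.07 and 0.005 differed by 0.065, less than the SD of either group (0.228 and 0.15), with an exact permutation p of 0.6 and an adjusted p of 0.75 over the 5 ratios tested.

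By FPKM, Tead1 was the predominant TEAD gene. Its protein is the TEAD factor long linked to M-CAT elements of muscle genes. Tead1 (ENSMUSG00000055320, chromosome 7 from 112679318 to 112906807, plus strand) had FPKM of 22.9, 19.8, 19.9, 19.7 and 20.2 in nAAC mice and of 14.7, 15.6, 14.4, 1.81 and 15.2 in sham mice. The groups were separate, and sham replicate 4 lay far below the other 4 sham mice. With all mice, the means were 20.5 ± 1.36 and 12.4 ± 5.91 (SD, n = 5), and the log2 fold change was 0.93 with an SE of 0.41, which did not pass the test (adjusted p = 0.0973). The exact permutation test gave 0.0079, the smallest p that 5 against 5 mice allow. Without sham replicate 4 the sham mean was 15.0 ± 0.535 (SD, n = 4) and the difference was 1.37-fold, with a log2 fold change of 0.43 (SE 0.094, adjusted p = 0.00425) and an exact p of 0.016, the smallest for 4 against 5. After median-ratio scaling the log2 fold change was 0.65 with all mice (adjusted p = 0.297) and 0.13 without sham replicate 4 (adjusted p = 0.37).

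The low Tead1 value was examined in the table of sham replicate 4. A single gene ID carried the name Tead1, and no second ID was present at the locus under that name. The genes overlapping it, 2310014F06Rik on the opposite strand and Gm44462 on the same strand, reached at most 1.0 and 0.195 FPKM in any mouse. The deposited coverage of Tead1 was 0.252 in sham replicate 4 and from 7.81 to 9.03 in the other sham mice, and the ratio of coverage to FPKM was 0.139 there and from 0.458 to 0.629 in the other 9 libraries. Its FPKM was 12.6% of the lowest other sham value, and 7 of the 11867 tested genes, Tead1 included, were at that share or below in this library. In the other libraries, from 0 to 11 genes were that far below the rest of their group. The other members in sham replicate 4 gave no such gap. Whether the low value comes from the mouse, the library or the assembly of transcripts was not tested.

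The other TEAD genes were low in FPKM. Tead2 (ENSMUSG00000030796, chromosome 7 from 45215753 to 45233644, plus strand), a TEAD gene known from early embryos and neural progenitors, had FPKM from 1.64 to 2.55 (median 2.31) in the nAAC group, against 1.04 to 1.95 (median 1.46) in the sham group. Its means were 2.16 ± 0.378 and 1.44 ± 0.335 (SD, n = 5), a log2 fold change of 0.38 (SE 0.13, adjusted p = 0.0364). After median-ratio scaling it was 0.19 (adjusted p = 0.232), and with trends on transcript length and GC content removed it was -0.063. The call was lost without any of nAAC replicates 3, 4 and 5 or sham replicates 1, 2 and 3. Tead2 is overlapped on the opposite strand by Cd37, which had means of 1.18 FPKM in nAAC mice and 0.756 in sham mice. Whether reads of Cd37 enter the Tead2 values was not tested.

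Tead3 (ENSMUSG00000002249, chromosome 17 from 28331671 to 28350817, minus strand) had means of 2.55 ± 0.287 (nAAC) and 2.13 ± 0.534 (sham; SD, n = 5), with a log2 fold change of 0.19 (adjusted p = 0.246) and of -0.014 after median-ratio scaling. Sham replicate 5, at 3.06, was above all nAAC mice, and without it the log2 fold change of 0.29 passed the test. Tead4 (ENSMUSG00000030353, chromosome 6 from 128224288 to 128300823, minus strand) had FPKM between 0.965 and 1.86 under nAAC and between 0.463 and 1.67 under sham. Its log2 fold change of 0.26 did not pass the test (adjusted p = 0.292), and after median-ratio scaling it was 0.10 (adjusted p = 0.725).

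Tead1 made up 77.1% ± 2.72 (SD, n = 5) of the summed TEAD FPKM under nAAC and 76.0% ± 4.78 (SD, n = 4) under sham without replicate 4. In sham replicate 4 it made up 32.8%, and with it the sham mean was 67.3% ± 19.8 (SD, n = 5). Tead3 had the next share, 9.62% in nAAC mice, followed by Tead2 at 8.13% and Tead4 at 5.11%. The Tead1 shares of the groups did not differ beyond their spread, with all mice (exact permutation p = 0.32, adjusted over 5 ratios 0.53) or without sham replicate 4 (exact permutation p = 0.63).

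**Figure D2:**
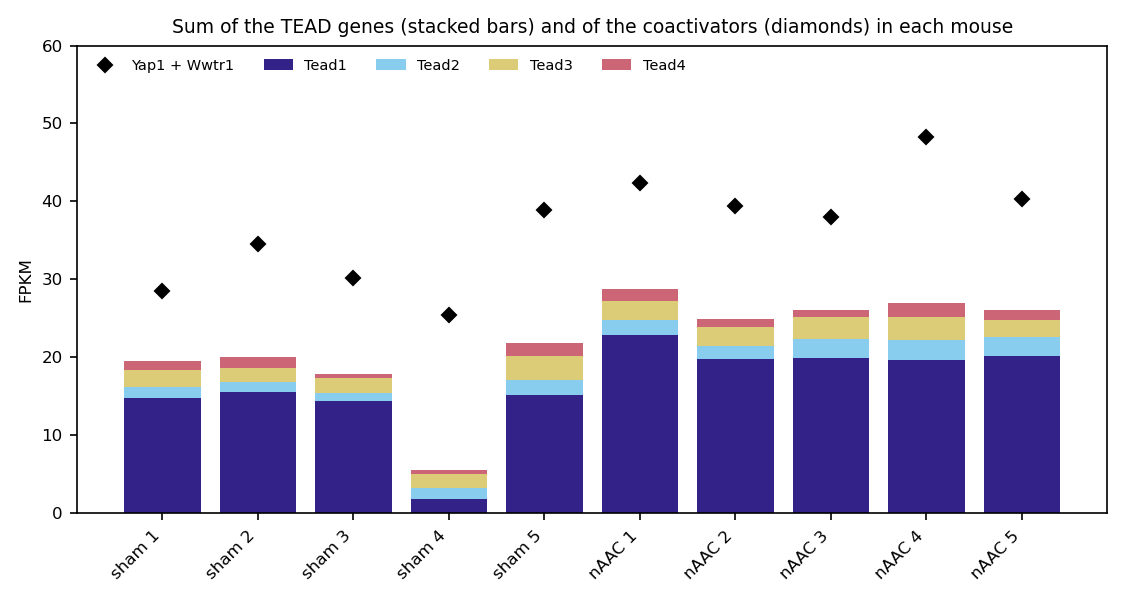
Summed FPKM of Tead1 to Tead4 in each mouse (stacked bars from 0) and summed FPKM of Yap1 and Wwtr1 (diamonds). The coactivator sum is above the TEAD sum in every mouse, and the TEAD sum of sham replicate 4 is 5.53 where the other sham mice have from 17.9 to 21.9.

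Coactivator transcripts exceeded TEAD transcripts in all 10 mice. The sum of Yap1 and Wwtr1 was 41.7 ± 4.01 FPKM in nAAC mice and 31.5 ± 5.31 in sham mice (SD, n = 5). The TEAD sum was 26.6 ± 1.45 (SD, n = 5) under nAAC and 19.8 ± 1.65 (SD, n = 4) under sham without replicate 4. The log2 ratio of coactivators to TEADs was 0.65 ± 0.119 in nAAC mice and 1.03 ± 0.666 in sham mice (SD, n = 5), a difference of -0.38 (exact permutation p = 0.17, adjusted over 5 ratios 0.42). Without sham replicate 4, at 2.20, the difference was -0.086 (exact permutation p = 0.33).

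Of the VGLL cofactors, Vgll4 had the smallest adjusted p among the members tested. Vgll4 (ENSMUSG00000030315, chromosome 6 from 114860628 to 114969994, minus strand), which competes with YAP for TEAD, had FPKM of 7.65, 8.38, 9.53, 10.4 and 9.14 in nAAC mice and of 5.25, 6.14, 5.66, 4.51 and 6.68 in sham mice. All nAAC mice were above all sham mice. The means of 9.02 ± 1.05 and 5.65 ± 0.834 (SD, n = 5) differed 1.60-fold, with a log2 fold change of 0.59 (SE 0.12, adjusted p = 0.00254) and an exact permutation p of 0.0079. The call held after median-ratio scaling, with 0.33 (adjusted p = 0.0387) on all mice and 0.26 (adjusted p = 0.0419) without sham replicate 4, and when any mouse was left out. It was lost when trends on transcript length and GC content were removed, with 0.22 (adjusted p = 0.283).

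Relative to the TEADs, Vgll4 did not differ beyond the spread of the mice. The log2 ratio of Vgll4 to the TEAD sum was -1.57 ± 0.208 in nAAC mice and -1.45 ± 0.653 in sham mice (SD, n = 5), a difference of -0.12 (exact permutation p = 0.9). Without sham replicate 4, which had the highest ratio at -0.295, the sign turned and the difference was 0.17 (exact permutation p = 0.21, adjusted over 5 ratios 0.52).

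Vgll3 (ENSMUSG00000091243, chromosome 16 from 65815257 to 65866368, plus strand), a TEAD partner known from fibroblasts and from sex-biased gene expression in skin, was the lowest member and had the largest fold. Its FPKM were 1.84, 0.894, 0.719, 1.78 and 1.35 in nAAC mice and 0.377, 0.588, 0.568, 0.319 and 0.581 in sham mice. The lowest nAAC mouse lay above the highest sham mouse, and the nAAC mice spread over a wider range. The means of 1.32 ± 0.508 and 0.487 ± 0.129 (SD, n = 5) differed 2.71-fold, with an exact permutation p of 0.0079. With a mean FPKM of 0.902 over all mice Vgll3 missed the filter. In a fit of all 29309 genes above 0 in any library, its log2 fold change was 0.62 (SE 0.15, adjusted p = 0.0246), and 11.6% of those genes were called higher. After median-ratio scaling the difference of its mean log2 values was 0.48 (exact permutation p = 0.024).

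Lats2 and Amotl2 are inhibitors of YAP and TAZ whose genes are also YAP and TAZ targets. Lats2 (ENSMUSG00000021959, chromosome 14 from 57689662 to 57758388, minus strand) had FPKM of 8.51, 6.80, 7.18, 11.9 and 9.61 in nAAC mice and of 5.48, 7.21, 5.77, 4.89 and 6.86 in sham mice. Its locus is overlapped by 3 genes of low level, with a mean of at most 0.308 FPKM. Its means of 8.80 ± 2.05 and 6.04 ± 0.967 (SD, n = 5) gave a log2 fold change of 0.46 (SE 0.15, adjusted p = 0.0335), which was 0.20 after median-ratio scaling (adjusted p = 0.316). The call was lost without any of nAAC replicates 1, 4 and 5 or sham replicates 1, 3 and 4, with log2 fold changes from 0.36 to 0.47.

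The paralog Lats1, which is not a member, was at 3.02 ± 0.587 FPKM in nAAC mice and 2.86 ± 0.677 in sham mice (SD, n = 5). The log2 ratio of Lats2 to Lats1 within a mouse was 1.53 ± 0.235 and 1.11 ± 0.28, a difference of 0.43 that does not depend on the scaling between libraries. Its exact permutation p was 0.04 with all mice and 0.032 without sham replicate 4. Adjusted over the 5 ratios these were 0.2 and 0.16, so the difference did not pass. Without sham replicate 4 the smallest exact permutation p is 0.016, so 1 ratio alone could not pass there after adjustment.

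Amotl2 (ENSMUSG00000032531, chromosome 9 from 102716672 to 102733418, plus strand) had FPKM of 15.9, 9.83, 14.9, 13.8 and 13.4 in nAAC mice and of 8.73, 6.96, 11.9, 8.53 and 13.6 in sham mice. The means of 13.6 ± 2.31 and 9.95 ± 2.73 (SD, n = 5) overlapped in range, and the log2 fold change of 0.43 (SE 0.18) missed the threshold (adjusted p = 0.0785). It passed when nAAC replicate 2 (0.53) or sham replicate 5 (0.55) was left out, and it was 0.16 after median-ratio scaling (adjusted p = 0.55).

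**Figure D3:**
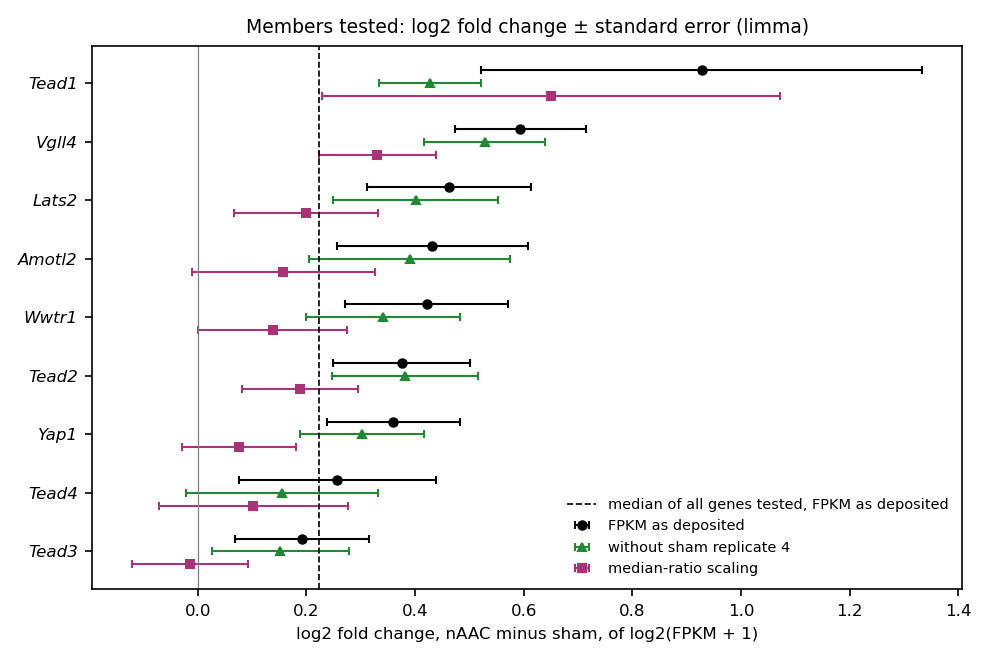
Log2 fold change (nAAC minus sham) with its standard error for the 9 members tested, on the FPKM as deposited (circles), without sham replicate 4 (triangles) and after median-ratio scaling (squares), with the median of all genes tested as a dashed line at 0.22. Median-ratio scaling moves every member toward 0, and the error bar of Tead1 shrinks from 0.41 to 0.094 when sham replicate 4 is left out.

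The order of the levels, taken from FPKM and not from coverage, was nearly the same in both groups. In nAAC mice it was Wwtr1, Tead1, Yap1, Amotl2, Vgll4, Lats2, Tead3, Tead2, Tead4 and Vgll3. In sham mice Yap1 came before Tead1 and Lats2 before Vgll4. Neighbours in the order had separate ranges only from Yap1 to Amotl2 and from Lats2 to Tead3 in nAAC mice and from Vgll4 to Tead3 in sham mice, so a high set and a low set (Tead2, Tead3, Tead4 and Vgll3) can be told apart, except for Tead1 in sham replicate 4, and the ranges of the 3 highest overlap. Within mice, Yap1 was above Tead1 in 5 of 5 sham mice and Tead1 above Yap1 in 2 of 5 nAAC mice.

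Within groups, the genes that varied most alike were found by the Pearson correlation of log2 values after subtracting each group's mean over the 10 mice. They share the libraries and their depth, so the values are a description. For Yap1 they were Shc1 (0.959), Ambra1 (0.957) and Zbtb4 (0.946), and for Wwtr1 they were Nin (0.98), Tada1 (0.971) and Map4k5 (0.97). Yap1 and Wwtr1 themselves correlated at 0.648, and at 0.503 without sham replicate 4. For Tead1 the values of 0.981 with Hipk2, 0.98 with Pbrm1 and 0.979 with Pom121 rested on sham replicate 4, without which they were 0.523, 0.753 and -0.108.

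The target genes of YAP and TAZ included the largest differences among the pathway genes tested, those of Ccn2 and Ankrd1. Of a published conserved signature of 22 genes, which holds Lats2 and Amotl2, 19 were tested, 11 rose in nAAC mice and none fell, a share of 57.9% beside the 27.1% of all genes. Without the members Lats2 and Amotl2 it was 10 of 17. There were 6 DEGs, namely Ccn2, Ankrd1, Tgfb2, Ccn1, Axl and Ccdc80, beside 5.01% of all genes in the higher direction. In 10 of the 19 all nAAC mice lay above all sham mice, beside 18.9% of all genes. The median log2 fold change was 0.57 beside the 0.22 of all genes. After median-ratio scaling 10 were called higher, beside 12.5% of all genes, F3 was called lower, and the median was 0.42. Without sham replicate 4, 10 were called higher, beside 33.1% of all genes in that fit. With length and GC trends removed 9 were called higher, beside 14.2% of all genes, and F3 and Arhgef17 lower.

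Ccn2 (also called Ctgf), a matricellular protein and a standard readout of YAP activity, had FPKM of 450, 183, 342, 266 and 198 in nAAC mice and of 15.6, 16.1, 17.7, 20.7 and 23.9 in sham mice. The means of 288 ± 111 and 18.8 ± 3.45 (SD, n = 5) differed 15.3-fold, with a log2 fold change of 3.80 (SE 0.23, adjusted p = 2.16e-07) that ranked 9 among all genes tested. Ankrd1, a stress-induced protein of the cardiomyocyte sarcomere and nucleus, was at 1756 ± 394 and 144 ± 81.1 FPKM (SD, n = 5), a log2 fold change of 3.72 (SE 0.28, adjusted p = 1.28e-06). After median-ratio scaling these log2 fold changes were 3.51 for Ccn2 and 3.42 for Ankrd1. The highest sham value of Ankrd1, 284 in replicate 5, lay well below the lowest nAAC value.

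Tgfb2, a ligand of the TGF-beta family, was at 11.4 ± 2.74 and 1.71 ± 0.255 FPKM (SD, n = 5), a log2 fold change of 2.17 (adjusted p = 5.13e-07). Ccn1 (Cyr61), the close relative of Ccn2, was at 30.8 ± 5.26 and 8.81 ± 2.69 (SD, n = 5), with 1.72 (adjusted p = 1.45e-05). After median-ratio scaling they were at 1.93 and 1.44. The receptor tyrosine kinase Axl rose by 1.17, the secreted protein Ccdc80 by 1.12, the IGF carrier Igfbp3 by 0.94, the membrane repair protein Myof by 0.83, the phosphatase Ptpn14 by 0.72 and the kinase Nuak2 by 0.57 on the log2 scale. These genes and the DEGs above stayed called after median-ratio scaling, in contrast to Lats2.

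The smallest differences among the targets were in Gadd45a (-0.16), F3 (-0.13), Arhgef17 (0.10) and Rbms3 (0.24), with adjusted p of 0.696, 0.497, 0.663 and 0.372. F3, the gene of tissue factor, was called lower after median-ratio scaling (-0.40, adjusted p = 0.0334), after upper-quartile scaling (-0.37, adjusted p = 0.0301) and with length and GC trends removed (-0.28, adjusted p = 0.0404), while with TPM its log2 fold change was 0.02 (adjusted p = 0.922). With the trends removed Arhgef17 was called lower too (-0.40, adjusted p = 0.00571). Nt5e, Asap1, Crim1 and Amotl2 did not pass either. Fjx1, Foxf2 and Dock5 were below the filter, and of them Fjx1 had no overlap between groups, at 0.480 ± 0.163 and 0.155 ± 0.112 FPKM (SD, n = 5).

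**Figure D4:**
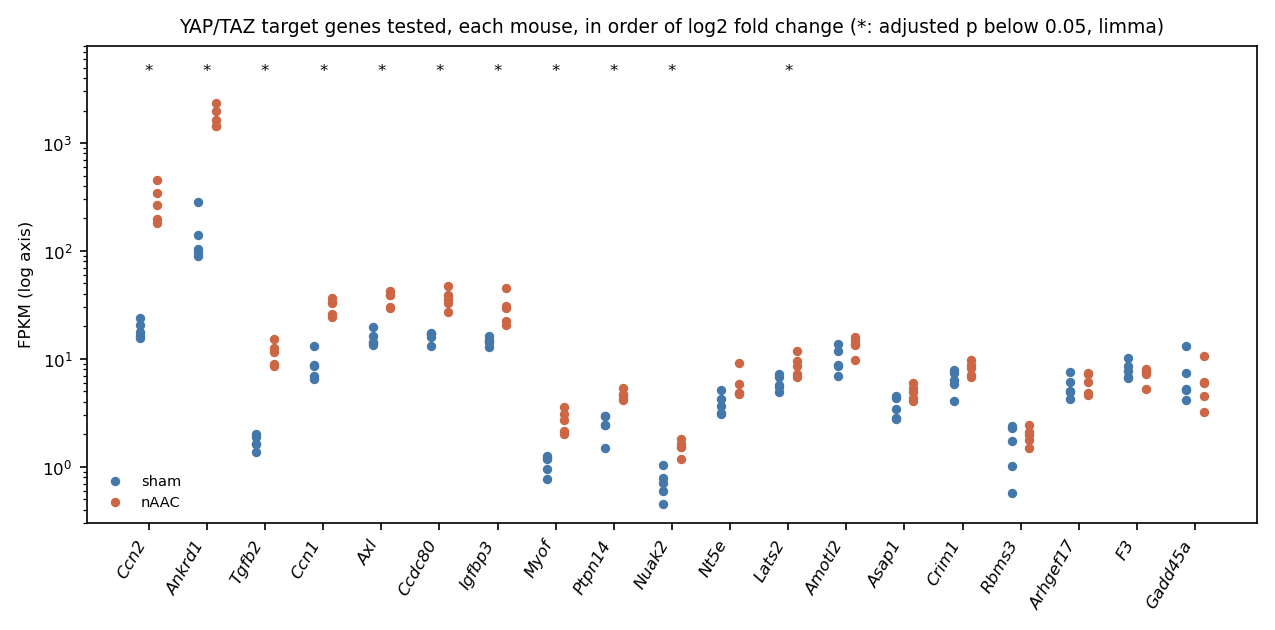
FPKM on a log axis of the 19 YAP and TAZ target genes tested in each sham mouse (blue) and nAAC mouse (orange), ordered by log2 fold change, with a star over those with an adjusted p below 0.05. For Ccn2 on the left the lowest nAAC value is 183 and the highest sham value 23.9, and the groups overlap in all genes to the right of Nuak2.

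Several of these targets are made by more than 1 cell type. The marker counts that follow stand beside the 27.1% of all genes called higher and the 4.6% called lower. Of 8 fibroblast markers, 5 rose (Postn, Col1a1, Tcf21, Lum and Dcn) and none fell, and their summed FPKM lay between 986 and 1488 under nAAC and between 649 and 902 under sham. Of 7 mural cell markers, 4 rose (Myh11, Cspg4, Acta2 and Pdgfrb), with sums from 272 to 381 and from 185 to 326, and Rgs5 (-0.002), Kcnj8 (-0.003) and Abcc9 (-0.53, adjusted p = 0.0825) were not called. Of 8 cardiomyocyte markers, 2 rose (Actn2 and Actc1) and 2 fell (Pln and Tnni3), with sums from 13100 to 20130 and from 15200 to 26180. From the 6 endothelial markers Kdr rose (sums 139 to 258 and 131 to 211) and from the 6 macrophage and leukocyte markers C1qa rose (sums 112 to 219 and 74.5 to 166). No erythroid marker of 3 was called (sums 1841 to 5027 and 1331 to 4870). None of the 3 atrial markers tested was called (sums 2.03 to 227 and 3.05 to 44.8), and the fourth, Bmp10, was listed at 0 in all nAAC mice. No other marker was at 0 in every mouse of a group. After median-ratio scaling fewer markers were called higher, in a fit where 12.5% of all genes were. Of the fibroblast markers 3 were called higher, and of the mural markers 2 were called higher and Abcc9 lower. No cardiomyocyte marker was called higher and 3 were called lower (Pln, Tnni3 and Myh6). No endothelial marker was called, and C1qa was still called higher. The part of these markers in the values of the members and targets was not tested.

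The upstream part of the pathway was counted by role. From a list of 32 other Hippo genes, 28 were tested, 15 rose in nAAC mice and none fell, a share of 53.6% beside 27.1%, and their median log2 fold change was 0.37. After median-ratio scaling 7 were called, beside 12.5% of all genes, with a median of 0.11. None of the 6 genes of the kinase cassette (Stk3, Stk4, Sav1, Lats1, Mob1a and Mob1b) was called, and their log2 fold changes ran from 0.03 for Stk3 to 0.43 for Mob1a. In the junction and membrane inputs, 7 of 8 tested were called, of which 4 remained after median-ratio scaling. That the roles differ was not tested.

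Amot, the paralog of Amotl2 that links junctions to YAP, had FPKM of 4.09, 3.75, 2.59, 2.24 and 2.54 in nAAC mice and of 0.544, 1.01, 0.831, 0.640 and 1.15 in sham mice. The groups were separate, at 3.04 ± 0.825 and 0.836 ± 0.253 (SD, n = 5), a 3.64-fold difference with a log2 fold change of 1.13 (SE 0.15, adjusted p = 0.000109). Its other paralog Amotl1 rose by 0.56 (adjusted p = 0.0329). The protocadherin Dchs1 rose by 0.94, the scaffold Wwc2 (a KIBRA relative) by 0.72, Nf2 (merlin) by 0.50 and Rassf1 by 0.40, in addition to Ptpn14, which is also a target. Of these, Amot, Dchs1, Wwc2 and Ptpn14 were called after median-ratio scaling as well.

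Slmap, which recruits the STRIPAK phosphatase complex to the kinases MST1 and MST2 and is also a membrane protein of the sarcoplasmic reticulum in muscle, was at 63.8 ± 3.83 FPKM in nAAC mice and 25.8 ± 5.16 in sham mice (SD, n = 5). The lowest nAAC value of 59.6 was above the highest sham value of 33.1, and the log2 fold change was 1.29 (SE 0.14, adjusted p = 2.35e-05) and 1.0 after median-ratio scaling (adjusted p = 0.000414). Among its partners, Ppp2ca rose by 0.37 and Strn3 by 0.28, neither of which was called after median-ratio scaling.

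The upstream kinase Taok3 rose by 0.82 (adjusted p = 0.000217) and Taok2 by 0.46 (adjusted p = 0.0144). The LATS inhibitors Limd1 and Wtip rose by 0.75 and 0.66, and Csnk1d of the degradation group rose by 0.36. Taok3 and Limd1 were called after median-ratio scaling too. The smallest differences in the list were in Stk3 (0.03), Csnk1e (0.05), Lats1 (0.07) and Btrc (0.11), with adjusted p from 0.507 to 0.904.

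Vgll2, a VGLL cofactor known from skeletal muscle, was listed at 0 in all 5 sham mice and at 0.420, 3.62, 3.40, 1.46 and 0.571 FPKM in nAAC replicates 1 to 5. Its mean was below the filter, and an exact permutation test gave p = 0.0079. The atrial marker Myl7 was at 1.10, 54.0, 79.8, 11.9 and 0.654 FPKM in the same nAAC mice. Myl4 and Sln were also highest in nAAC replicates 2 and 3. In sham mice, where Vgll2 was listed at 0, Myl7 was from 1.16 to 22.4. The part of atrial tissue in the Vgll2 values was not tested. Vgll1 was listed at 0 in all 10 mice. Wwc1 and Fat4 were also below the filter.

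**Figure D5:**
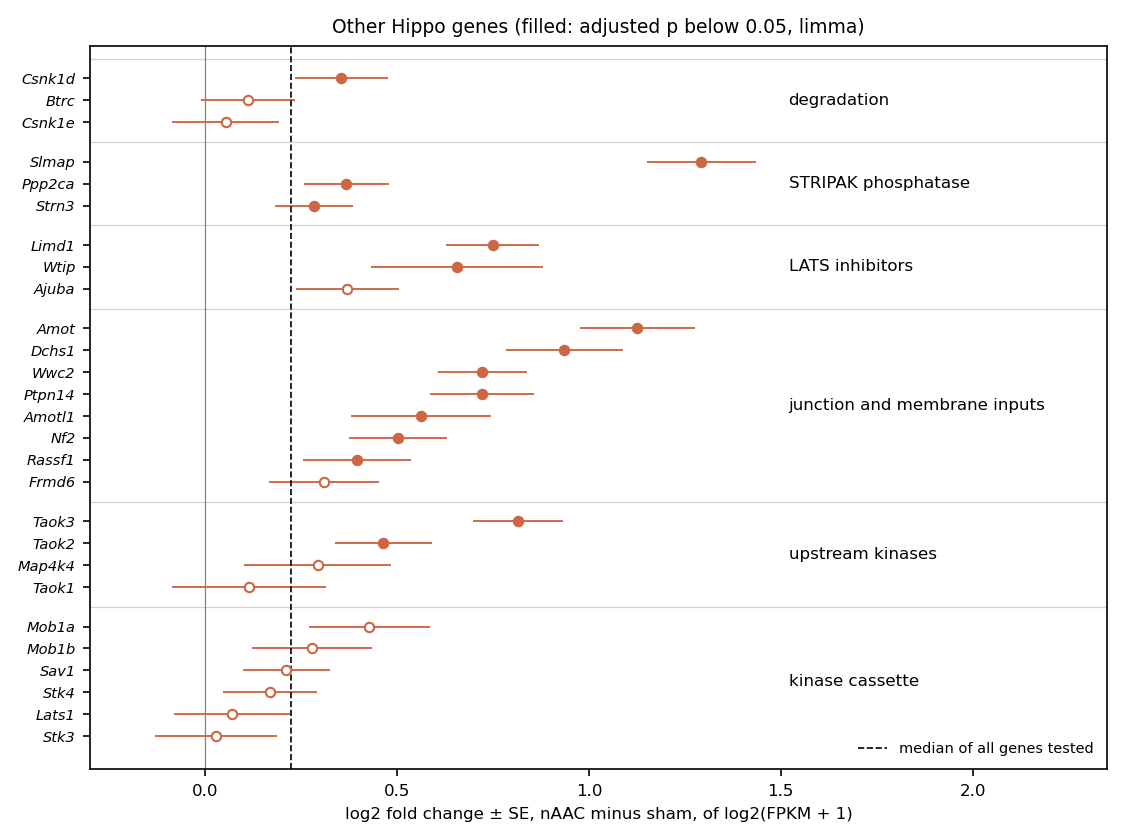
Log2 fold change (nAAC minus sham) with its standard error for 27 of the 28 other Hippo genes tested, grouped by role, with filled points at an adjusted p below 0.05 and the median of all genes tested as a dashed line at 0.22. The kinase cassette has only open points, and Slmap at 1.29 and Amot at 1.13 lie farthest to the right.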

How the data were processed

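RNA-seq libraries of 10 LV samples were used, grouped by the operation named in the labels. Libraries were made with the NEBNext Ultra kit from TRIzol RNA. For every mouse, the authors deposited a gene table with coverage, FPKM (normalized for length and depth) and TPM, in the column layout of StringTie. The submitters' processing notes name mm10, and 99.35% of the genes shared with GENCODE M21 (GRCm38) had its coordinates. The aligner, the quantification tool and the use of strand are not given in the sources used here, so overlapping genes on opposite strands may share reads. Read counts are not in the tables, and no count model was used. Rows sharing a gene ID were summed.

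limma 3.58.1 (R 4.3.3) was run with an empirical Bayes trend on log2(FPKM + 1) without covariates, on genes whose mean FPKM was 1 or more, and p-values were adjusted over all of them. The pseudocount makes fold changes of low genes too small. Single genes and ratios were compared with two-sided exact permutation tests (scipy 1.17.1). The smallest p is 0.0079 for 5 against 5 mice. On simulated data with 200 genes changed by 1.5 log2 units, 193 were recovered with 9 false calls. Genes at low levels were not among those changed, and the change was larger than that of any member. The recovery therefore does not hold for differences as small as those of the members. A regulator counted in its list is not reported here by name. The members and gene lists were chosen with earlier results of these data known. Named were all members, listed genes that were called or had the 4 largest or 4 smallest log2 fold changes, and the 3 genes most like Yap1, Wwtr1 and Tead1. Alternatives were scaling by median ratios or upper quartiles, TPM, no filter, a pseudocount of 0.1, no trend, Xist as a covariate, a replicate block, summed gene IDs, removal of length and GC trends by loess (span 0.5), the DEG threshold and leaving out each mouse. The Xist level stands in for sex, which the labels used here do not give. Whether the groups differ in sex was not tested. The combinations with sham replicate 4 left out were added after seeing the data. Figures were drawn with matplotlib 3.10.9.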

Additional observations from a re-analysis of the deposited data

Results flagged for a closer look

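In 30 groups of 5 values (members and ratios in each group of mice), 5 held a mouse whose gap to its nearest neighbour took more than 0.71 of the group's range, Dixon's 95% critical value for 5 samples. By this rule about 1 group in 20 is marked by chance. Tead1 in sham replicate 4 was lowest, with a gap of 0.957 of the range of log2(FPKM + 1). The other marked sham values also hold Tead1 in their denominator or numerator and came from the same mouse. They were the ratio of Yap1 plus Wwtr1 to the TEAD sum, highest with a gap of 0.826, the ratio of Vgll4 to the TEAD sum, highest with 0.852, and the Tead1 share, lowest with 0.767. Tead1 in nAAC replicate 1, at 22.9 FPKM, was highest with a gap of 0.818, in a group whose other mice lay from 19.7 to 20.2.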

How the results depend on the processing

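The count of 5 members called was the least stable. It was 1 after median-ratio scaling, 1 after upper-quartile scaling, 1 with Xist as a covariate, 3 without a filter and 0 with length and GC trends removed, where 12.5%, 13.7%, 13.4%, 11.6% and 14.2% of all genes were called higher. At the DEG threshold it was 0. With TPM it was 7, and 15 targets and 21 other Hippo genes were called higher, beside 41.9% of all genes. Leaving out each mouse gave from 1 member (without nAAC replicate 4 or 5 or sham replicate 1 or 3) to 7 members (without sham replicate 5). In these fits from 20.2% (without nAAC replicate 4) to 33.1% (without sham replicate 4) of all genes were called higher. Without sham replicate 4 the member count was 1 after median-ratio scaling (Vgll4) and 2 with the trends removed (Tead1 higher, Tead3 lower). In these 2 fits 15.6% and 15.2% of all genes were called higher. The 11 targets became 6 at the DEG threshold and lay from 10 to 14 with each mouse left out. They were 9 higher and 2 lower with the trends removed, and 8 higher and 1 lower when sham replicate 4 was also left out. The 15 other Hippo genes became 7 after median-ratio scaling (also without sham replicate 4), 7 after upper-quartile scaling, 7 with Xist, 9 with the trends removed (8 higher, and Csnk1e lower at -0.35) and 2 at the DEG threshold, and lay from 9 (without sham replicate 1) to 14 with each mouse left out.

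Signs turned with the trends removed in Tead2 (-0.063), Tead3 (-0.25), Tead4 (-0.177) and Amotl2 (-0.007), and also without sham replicate 4, at -0.088, -0.32, -0.321 and -0.043. After median-ratio scaling Tead3 was at -0.014 and, without sham replicate 4, at -0.062, with Tead4 at -0.007. The cause was not tested. Vgll4 kept its call in 20 of 22 alternatives, Yap1 and Wwtr1 in 7 of 22, and Vgll3, which is below the filter and was not called, had a higher nAAC mean in all 16 run for it, with an unadjusted exact permutation p from 0.0079 to 0.024 in 15 of them and an adjusted p of 0.0246 without a filter. Tead1 passed with TPM (1.13, where the median of all genes was 0.389). None of the 5 ratios passed in any alternative. With a mouse left out the smallest exact permutation p is 0.016, so 1 ratio alone could not pass after adjustment over the 5. With the replicate block no ratio could pass, because the smallest p of its sign-flip test is 0.0625. Same-numbered mice correlated from -0.316 to 0.192 in their deviations, so the numbers do not pair them. With the replicate block 2 members were called, beside 24.7% of all genes called higher. Read numbers are unknown, which limits what can be said of Tead2, Tead4, Vgll2 and Vgll3 at their low levels.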

Other observations

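The tested genes as low as Tead1 in sham replicate 4, relative to the other sham mice, were looked up after their values were seen. Fgf2, a fibroblast growth factor, was at 0.245 FPKM there, at least 2.15 in the other sham mice and at least 1.79 in nAAC mice. Lrp8 and Aqp8 were listed at 0 in that library, but their lowest other sham values were 0.0353 and 0.0333, so they were near 0 in more than 1 sham mouse, and the rest were the predicted genes Gm2395, Gm15626 and Gm30873.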
